A study of Mus musculus with 6 samples.

Results

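The insulin-like growth factor (IGF) system of the liver was followed through 10 genes, chosen by name: the ligands Igf1 and Igf2, the acid-labile subunit Igfals, the binding proteins Igfbp1, Igfbp2, Igfbp3, Igfbp4 and Igfbp5, and the receptors Igf1r and Igf2r. They are 10 of 18193 genes with a probe set of 1 symbol on the array, and 26 of 34945 such probe sets. The probe set with the highest mean level stands for a gene, and 3 genes (Igfals, Igfbp1 and Igfbp2) have a single one. RNA came from the livers of male mice aged 10 weeks, 3 wild-type (WT) and 3 labelled as liver knockouts of Pex5 (KO, genotype L Pex5 -/-). Pex5 encodes the receptor that brings enzymes into peroxisomes, where the longest fatty acids are broken down. The labels give WT and KO the same mixed background with Alb-Cre, a recombinase that the albumin promoter drives in hepatocytes, so the other liver cells of a KO animal should keep their Pex5. Each array is 1 biological replicate, a liver is a mixture of cell types, and in such a piece fewer cells of a type and less RNA per cell cannot be told apart.

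IGF1 is the main mediator of growth hormone, and most of what circulates is made by hepatocytes after growth hormone activates its receptor and the transcription factor STAT5. In blood the IGFs travel bound to binding proteins, mostly in a complex of an IGF, IGFBP3 or IGFBP5 and the acid-labile subunit, which prolongs their life. IGFBP1 is the binding protein that insulin represses and fasting or stress raises, through FOXO and other factors. IGF1R is the signalling receptor, while IGF2R, also the receptor of lysosomal enzymes tagged with mannose 6-phosphate, takes up and degrades IGF2.

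Igf1 and Igfals were lower in KO and Igfbp1 and Igf2r higher, and the other 6 genes did not pass the test. Levels are in log2 units, a difference is the KO mean minus the WT mean, and p-values come from limma with the Benjamini-Hochberg correction across the 18193 genes, where 0.05 is the threshold. Of the 10 genes 2 were higher, against 14.2% of all genes, and 2 were lower, against 9.75%, so that 4 of 10 passed where 24.0% of all genes did. The groups did not overlap in 6 of the 10, against 44.8% of all genes. The median difference of the 10 was -0.22, and that of all genes -0.055. With 10 genes these counts mark nothing particular about the family, and the results below are those of its single members.

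Facts of the whole data set bear on all of these values. Across the 18193 genes the lowest correlation within a group was 0.989 and the highest between groups 0.976. Pex5 itself read 9.04 ± 0.14 (SD, n = 3) in WT and 9.22 ± 0.11 (SD, n = 3) in KO (adjusted p = 0.262, limma), and whether its probe set covers the deleted part is not given in the sources used here, so it does not check the labels. Defining hepatocyte markers such as Alb and Ttr were present on all arrays. The 38 probe sets for spiked bacterial transcripts were dimmer on the KO arrays, at a mean of 9.29 to 9.40 against 9.81 to 9.91 in WT (exact two-sided permutation p = 0.1, the smallest that 3 against 3 arrays can give). Centring the arrays on them adds 0.51 to every difference. It turns 2589 higher and 1774 lower genes into 12970 and 409 of 18193, the background for every count given on that scale. On that scale 6 of the 10 genes were higher (Igf2, Igfbp1, Igfbp3, Igfbp4, Igf1r and Igf2r) and 1, Igfals, was lower. Each direction given is thus one against the average gene of these arrays as RMA scaled them.

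Both Igfbp1 and Igfals, which moved furthest up and down among the 10, have promoters in which known control elements can be read, and the bases before their start sites are shown for that reason (RefSeq, mouse assembly GRCm38.p6, 5′ to 3′, plus strand, 250 bases ending just before a listed start). Capitals mark motifs found on either strand. In Igfbp1 (chr11:7197537-7197786) they mark CAAAACA, the core of the insulin response element. In Igfals (chr17:24877981-24878230, the second of its 3 listed starts) they mark TGTTTAC, which is the forkhead core GTAAACA on the opposite strand, and then TTCCTAGAA, a STAT5 element of the form TTCNNNGAA.
Igfbp1: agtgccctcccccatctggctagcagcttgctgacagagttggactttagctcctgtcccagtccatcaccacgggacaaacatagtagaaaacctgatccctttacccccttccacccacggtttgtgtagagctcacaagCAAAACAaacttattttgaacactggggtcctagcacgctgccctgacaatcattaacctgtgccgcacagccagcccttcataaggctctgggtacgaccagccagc
Igfals: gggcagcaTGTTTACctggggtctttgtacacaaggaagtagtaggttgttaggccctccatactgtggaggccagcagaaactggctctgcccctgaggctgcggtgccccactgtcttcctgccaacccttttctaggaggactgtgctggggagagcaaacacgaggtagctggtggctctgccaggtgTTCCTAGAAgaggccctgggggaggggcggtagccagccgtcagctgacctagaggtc
The insulin response core begins 108 bases before the Igfbp1 start, and the STAT5 element 58 bases before that Igfals start. Of 32851 windows of this length, 5.56% hold CAAAACA, 7.02% TTCNNNGAA and 3.17% GTAAACA, so that each is common. Another of the Igfals windows also holds TTCNNNGAA, at 236 bases before its start. Among the 16 windows of the 10 genes no other match to these motifs was found, and none to TGATGNAA (a C/EBP-ATF4 element, in 3.45% of windows) or the direct-repeat element of PPARs (in 0.0335%). A match is a run of letters, not a measured site, and no motif overlapped another.

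Igf1, the growth factor that the liver secretes under growth hormone, stood at 12.62, 12.34 and 12.45 on the WT arrays and at 11.89, 11.76 and 11.81 on the KO arrays. Every KO array was below every WT array. The difference was -0.65 ± 0.10 (SE), a 1.57-fold fall (adjusted p = 0.00337, limma; 95% interval -0.89 to -0.41). All 4 probe sets of Igf1 were lower, the other 3 by -0.85, -0.93 and -0.94. Over the 26 probe sets of the 10 genes 3 were higher, against 11.9% of all 34945, and 7 lower, against 7.93%. Its call was lost on the scale of the bacterial controls, where it differed by -0.14 (adjusted p = 0.257, limma).

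Igf2, the fetal growth factor, which is imprinted and largely silenced in the mouse liver after birth, was dim. Its brighter probe set read 6.09, 6.03 and 6.21 in WT and 5.87, 5.78 and 5.95 in KO. The groups did not overlap, yet the difference of -0.24 ± 0.10 did not pass (adjusted p = 0.104, limma; 95% interval -0.46 to -0.02). Its other probe set, with a mean of 3.93, lay under the background of 4.90, the 95th percentile of 38 olfactory receptor genes that the liver should not express, and differed by 0.12.

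Igfals, which encodes the acid-labile subunit that holds the large circulating complex together, fell further than Igf1. It read 10.13, 9.67 and 9.79 in WT and 8.64, 8.35 and 8.74 in KO, so that the highest KO array was below the lowest WT array. The difference was -1.28 ± 0.15, or 2.43-fold (adjusted p = 0.000918, limma), and 1.27% of all genes had a lower difference. It still passed on the scale of the bacterial controls, at -0.77 (adjusted p = 0.00308, limma). It was lower under each of 17 alternatives, with adjusted p between 0.000223 and 0.0056 (limma).

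**Figure D1:**
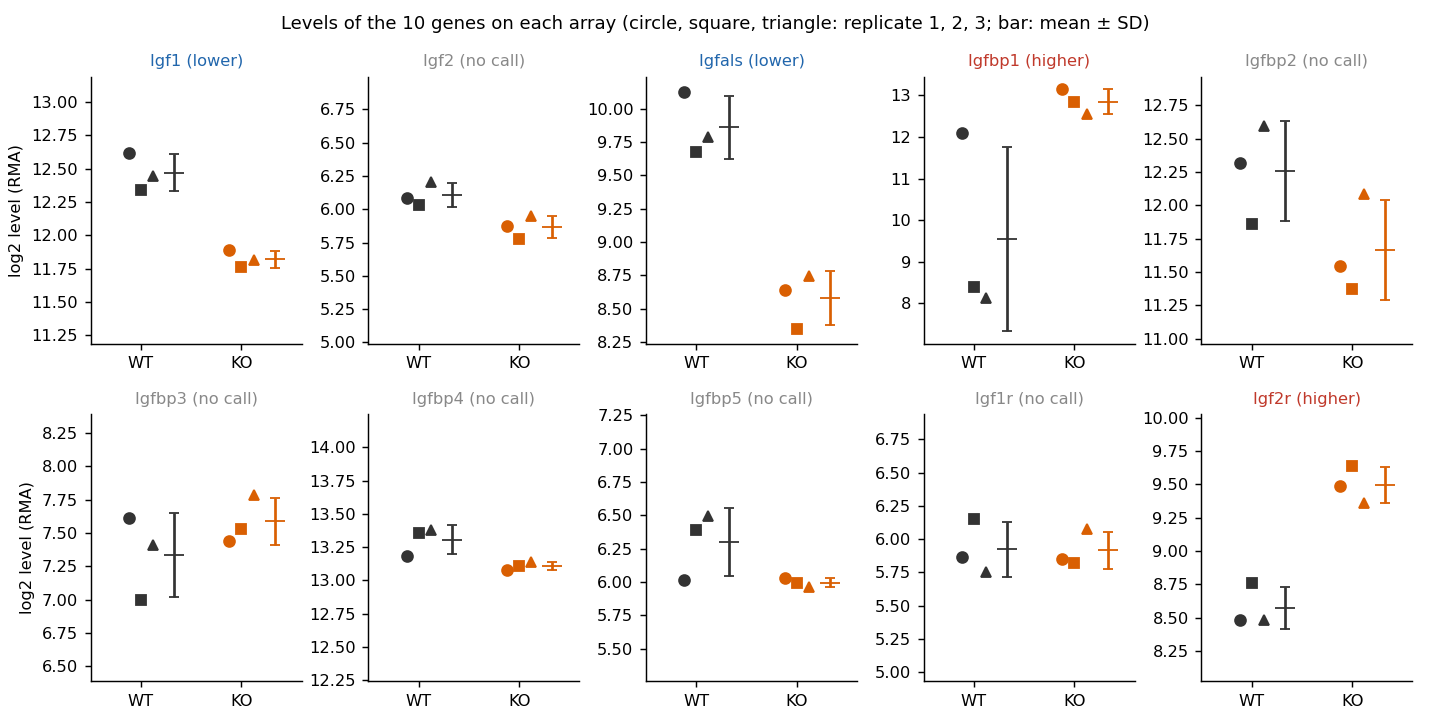
Log2 level (RMA) of the 10 genes on each of the 6 arrays, 3 WT (dark) and 3 KO (orange), each panel with its own axis; circles, squares and triangles are replicates 1, 2 and 3, and the bar is the mean ± SD. Igf1 and Igfals lie lower and Igf2r higher in all KO arrays, while the WT arrays of Igfbp1 run from 8.13 to 12.09.

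Igfbp1, the insulin-repressed binding protein, showed the largest difference of the 10. It read 13.15, 12.83 and 12.56 in KO. In WT it read 12.09 in replicate 1 but 8.40 and 8.13 in replicates 2 and 3. All KO arrays were above all WT arrays, although the lowest KO array exceeded WT replicate 1 by 0.47 only. The WT SD of 2.21 ranks 3 among 18193 genes. The difference was 3.31 ± 0.92 (adjusted p = 0.035, limma; 95% interval 1.19 to 5.42), or 9.90-fold between group means. The KO mean was 24.0-fold the mean of WT replicates 2 and 3 and 1.69-fold the level of WT replicate 1. Without WT replicate 1 the difference was 4.58 (adjusted p = 3.85e-05, limma). Leaving out any other array ended the call. The difference was then 2.74 without WT replicate 2 and 2.60 without WT replicate 3 (adjusted p = 0.0951 and 0.0915, limma). Leaving out KO replicate 1, 2 or 3 gave 3.16, 3.31 and 3.45 (adjusted p = 0.104, 0.103 and 0.0771, limma). With trend and robust eBayes the call was lost as well (adjusted p = 0.129, limma), so that its adjusted p spanned 3.85e-05 to 0.129 under 17 alternatives.

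The gene whose pattern over the 6 arrays was most like that of Igfbp1 was Pdk4, a kinase that switches off pyruvate dehydrogenase when fat is burned. Likeness was the root mean square distance between the deviations of the 2 genes from their WT means, which was 0.39 for Pdk4 and 0.90 for the next gene, Lpl, or lipoprotein lipase. Pdk4 read 8.28 in WT replicate 1, 5.70 and 5.35 in the other WT livers, and 9.96, 9.49 and 9.18 in KO. Its call was lost without KO replicate 1 or 2 (adjusted p = 0.0563 and 0.0523, limma). It was also lost with trend and robust eBayes (adjusted p = 0.0696, limma), as that of Igfbp1 was. Lpl read 9.63, 8.51 and 7.99 in WT and 11.54, 11.62 and 11.42 in KO. In each of these 3 genes WT replicate 1 was the highest WT array, which the choice of Pdk4 and Lpl by likeness over the same arrays favours. Pck1, a gluconeogenic enzyme that insulin represses through FOXO1 as it does Igfbp1, went the other way. It read 12.40, 12.83 and 13.12 in WT, lowest in replicate 1, and 11.05, 10.71 and 11.12 in KO. Other FOXO1 target genes listed below were mixed among WT. G6pc (12.54, 11.35 and 11.62), Irs2 (7.36, 6.70 and 5.78) and Fbxo32 (5.51, 4.74 and 4.94) were highest in replicate 1. Ppargc1a, Apoc3, Mttp, Tat and Angptl4 were lowest there, as Pck1 was, and Insr lay between. Nothing in the labels sets WT replicate 1 apart, and what lies behind these patterns was not tested.

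**Figure D2:**
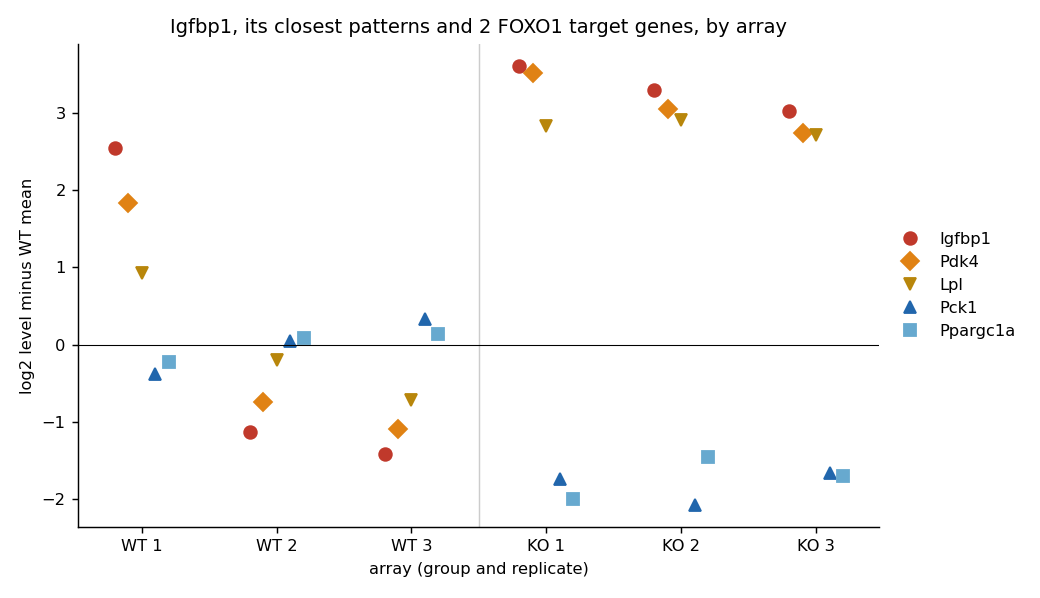
Log2 level minus the gene's WT mean on each of the 6 arrays for Igfbp1, the genes closest to it in pattern (Pdk4, Lpl) and Pck1 and Ppargc1a. Pck1 and Ppargc1a are the listed FOXO1 target genes that fell most, and Angptl4, of the same list and higher in KO, is not shown. Igfbp1 is highest in KO and, among WT, in replicate 1, and Pdk4 and Lpl, chosen for their likeness to it, follow. Pck1 and Ppargc1a are lowest in KO.

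Igfbp2, a binding protein that the liver secretes in quantity, read 12.32, 11.86 and 12.60 in WT and 11.54, 11.37 and 12.08 in KO. The highest KO array lay above the lowest WT array. The difference of -0.59 ± 0.23 did not pass (adjusted p = 0.0985, limma; 95% interval -1.13 to -0.06), though it passed once WT replicate 2 was dropped (-0.79, adjusted p = 0.0451, limma) or once KO replicate 3 was (-0.80, adjusted p = 0.046, limma). Igfbp2 and Igfbp5 are neighbours on chromosome 1, as Igfbp1 and Igfbp3 are on chromosome 11. Of neither pair did both genes pass by their brightest probe sets.

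Igfbp3, the main carrier of IGFs in the blood, which in the liver comes chiefly from cells other than hepatocytes, read 7.61, 6.99 and 7.41 in WT and 7.44, 7.53 and 7.79 in KO. The groups overlapped and the difference was 0.25 ± 0.17 (adjusted p = 0.311, limma; 95% interval -0.14 to 0.64). Its other probe set differed by 0.34 and did not pass either. It passed only on the scale of the bacterial controls, at 0.76 (adjusted p = 0.00419, limma).

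Igfbp4, a binding protein that mostly inhibits IGF action, was bright, with 13.18, 13.36 and 13.38 in WT and 13.08, 13.11 and 13.14 in KO. The KO arrays were all below the WT arrays, but the gap was small and the difference of -0.20 ± 0.09 did not pass (adjusted p = 0.154, limma; 95% interval -0.41 to 0.02). All 6 of its probe sets were lower in KO by value, from -0.19 to -0.43, and the dimmest of them passed (adjusted p = 0.0131, limma over the 34945 probe sets). On the scale of the bacterial controls Igfbp4 turned to 0.31 and passed as higher (adjusted p = 0.0271, limma).

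The 2 probe sets of Igfbp5, a binding protein of the extracellular matrix and, like IGFBP3, a partner of the acid-labile subunit, disagreed. The brighter one by mean, which stands for the gene here, read 6.02, 6.39 and 6.50 in WT and 6.03, 5.99 and 5.96 in KO, and its difference of -0.31 ± 0.13 did not pass (adjusted p = 0.129, limma). The other read 7.09, 6.71 and 6.38 in WT and 5.08, 5.23 and 5.61 in KO, with no overlap, and was lower by -1.42 ± 0.20, or 2.68-fold (adjusted p = 0.00239, limma over the 34945 probe sets). Their means over the 6 arrays were 6.15 and 6.02, so that the choice of the brighter one decides whether Igfbp5 counts as changed. Taking the mean of its probe sets gave -0.86 (adjusted p = 0.000627, limma). The brighter one alone also passed without WT replicate 1 (-0.45, adjusted p = 0.0204, limma).

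**Figure D3:**
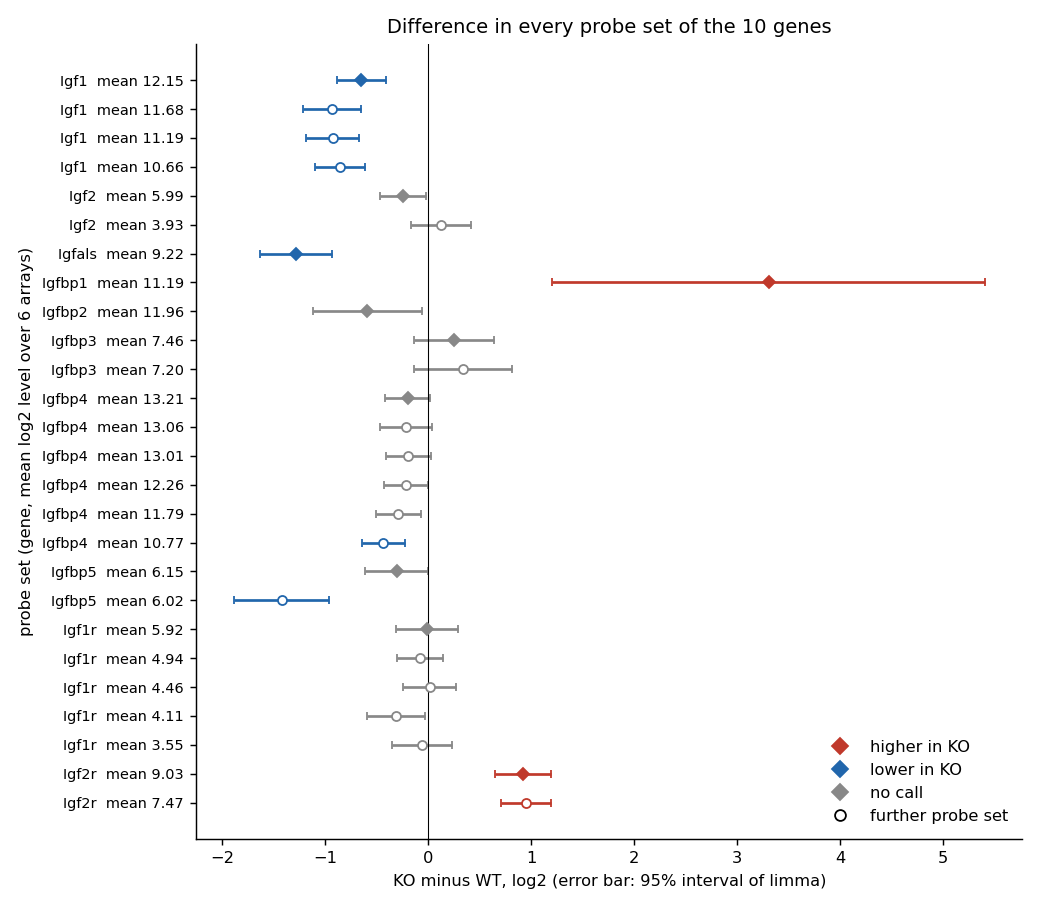
KO minus WT difference (log2) with its 95% interval for each of the 26 probe sets of the 10 genes, ordered by gene and mean level; filled diamonds stand for the gene, open circles are further probe sets, and colour gives the limma call over all probe sets. The 4 probe sets of Igf1 and the 2 of Igf2r lie together, whereas the 2 of Igfbp5 lie at -0.31 and -1.42.

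Among the receptors, Igf2r rose and Igf1r did not pass. Igf2r, which clears IGF2 and delivers lysosomal enzymes, read 8.48, 8.76 and 8.48 in WT and 9.49, 9.64 and 9.36 in KO. Every KO array was above every WT array. It rose by 0.92 ± 0.12, or 1.89-fold (adjusted p = 0.00136, limma), and its other probe set by 0.95 ± 0.11. It passed the 0.05 threshold under each of 17 alternatives, with adjusted p from 6.43e-05 to 0.00884 (limma), although its difference is under 2-fold in the deposited values.

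Igf1r, the receptor through which IGF1 signals and which hepatocytes carry at low levels, read 5.87, 6.15 and 5.75 in WT and 5.85, 5.82 and 6.08 in KO. The groups overlapped and the difference was -0.01 ± 0.13 (adjusted p = 0.969, limma; 95% interval -0.31 to 0.29). Of its 5 probe sets 3 had a mean under the background, and none of the 5 passed. On the scale of the bacterial controls it differed by 0.505 and passed (adjusted p = 0.0186, limma).

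**Figure D4:**
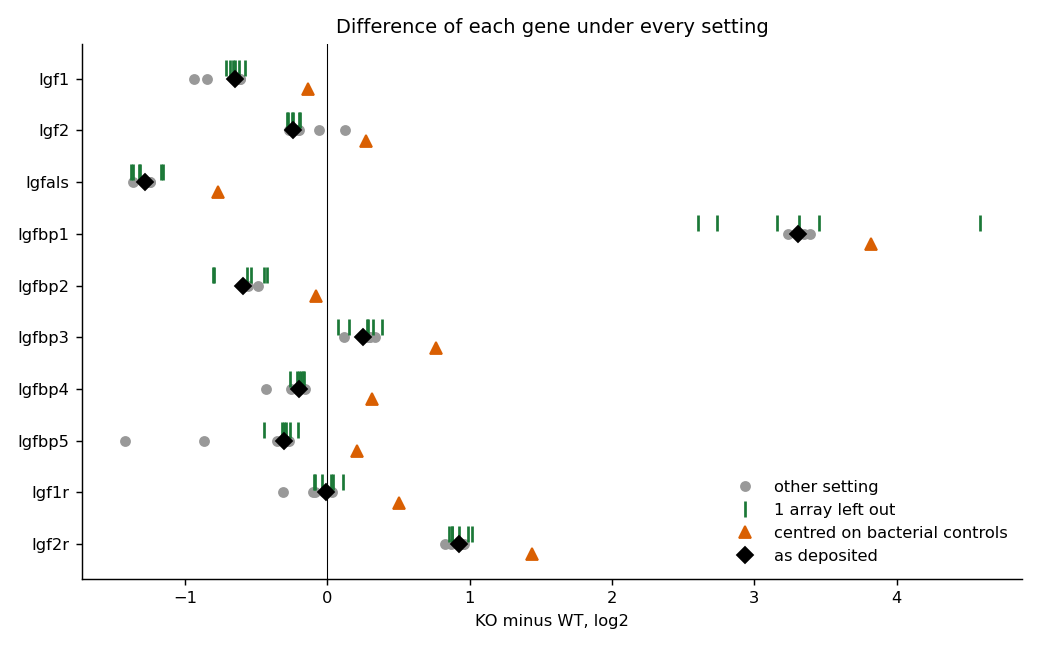
KO minus WT difference (log2) of each of the 10 genes as deposited (black diamond), with 1 array left out (green bars), centred on the bacterial controls (orange triangles) and under the other settings (grey). Igfals stays below 0 and Igfbp1 and Igf2r above 0 throughout, whereas Igf2, Igfbp4, Igfbp5 and Igf1r cross 0 when centred on the controls.

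For the other called members the genes with the most similar patterns over the 6 arrays, by the same distance, were Chrd (chordin, an antagonist of bone morphogenetic proteins) and Tmem254a for Igf1, at distances of 0.043 each. For Igfals they were Klkb1, plasma prekallikrein (0.105), and Cwf19l1 (0.111). For Igf2r they were Gtf2h1, a subunit of the transcription factor TFIIH (0.037), and Pgap2 (0.055). Klkb1 read 11.53, 11.35 and 11.39 in WT and 10.22, 9.78 and 10.38 in KO. It was lowest in KO replicate 2 as Igfals was, which its choice by likeness favours.

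Upstream of Igf1, the growth hormone receptor was lower. Ghr read 12.22, 12.31 and 12.15 in WT and 11.56, 11.49 and 11.34 in KO, with no overlap, and fell by 0.76 on the log2 scale (SE 0.10, 1.70-fold, adjusted p = 0.00141, limma). Centring on the bacterial controls left a difference of -0.25 and the call was lost (adjusted p = 0.0603, limma). Of 13 genes from the receptor to STAT5 and its feedback, 1 was higher and 2 were lower, against 14.2% and 9.75% of all genes, with a median of -0.13. Centred on the bacterial controls, 6 of the 13 were higher and 0 lower, with a median of 0.385. The higher one was Sirpa, a membrane glycoprotein that recruits phosphatases, by 0.43 (adjusted p = 0.0471, limma), a call lost without WT replicate 2 or 3 or without any KO array. Socs1, a feedback inhibitor, was lower by -0.31 (adjusted p = 0.0311, limma), but both group means (4.38 and 4.07) were under background, and the call was kept without WT replicate 3 and lost without any other array. Jak2, the kinase bound to the receptor, differed by -0.09, Stat5a by -0.13 and Stat5b by -0.36, and none of these passed. On the scale of the bacterial controls all of them turned above 0, and Jak2 passed (0.425, adjusted p = 0.0219, limma). The STAT5 target Socs2 read 7.45, 7.65 and 8.32 in WT and 7.19, 6.79 and 7.65 in KO (adjusted p = 0.143, limma). It passed only just when its probe sets were averaged (-0.43, adjusted p = 0.0492, limma). Its relatives Cish and Socs3 spread widely, and WT replicate 2 was the highest array in both, at 8.63 for Cish and 10.04 for Socs3.

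Downstream, 6 of 24 genes of insulin and IGF receptor signalling were higher and 5 lower, with a median of -0.09. Of all genes 14.2% were higher and 9.75% lower. Grb10, an adaptor that binds the insulin and IGF1 receptors and dampens their signal, moved most. It read 6.75, 6.77 and 6.52 in WT and 8.94, 9.39 and 8.65 in KO, a rise of 2.31 ± 0.18, or 4.98-fold (adjusted p = 0.000128, limma). The kinase Gsk3b rose by 0.74 (adjusted p = 0.0134, limma) and the kinase Mtor by 0.69 (adjusted p = 0.00135, limma), and both calls were lost when all probe sets of the gene were averaged (0.35 and 0.19). Gsk3b also lost its call without KO replicate 2 (adjusted p = 0.0562, limma). The transcription factor Foxo3 fell by 0.73 (adjusted p = 0.00733, limma), a call lost on the scale of the bacterial controls (-0.22). The insulin receptor Insr read 9.39, 9.42 and 9.29 in WT and 8.88, 8.92 and 8.98 in KO (adjusted p = 0.00929, limma), a call lost over the mean of its probe sets (-0.22) and on the scale of the bacterial controls (0.07). The docking protein Irs1 differed by -0.71 (adjusted p = 0.0551, limma) and Irs2 by 0.001, and neither passed, although Irs1 did without WT replicate 3 (-0.96, adjusted p = 0.00894, limma). On the scale of the bacterial controls 16 of the 24 were higher and 0 lower, where 12970 of all 18193 genes were higher and 409 lower.

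Of 18 proteases that cut binding proteins and their inhibitors 1 was higher and 2 were lower, where 24.0% of all genes passed in either direction, with a median of -0.19. Centred on the bacterial controls, 10 were higher and 0 lower, with a median of 0.318. Ctsd, the lysosomal protease cathepsin D, rose from 10.87 ± 0.04 to 11.63 ± 0.05 (SD, n = 3; adjusted p = 0.000737, limma). Plg, plasminogen, read 13.79, 13.68 and 13.77 in WT and 13.23, 13.22 and 13.20 in KO, a fall of 0.53 (adjusted p = 0.00376, limma) that shrank to -0.01 on the scale of the bacterial controls. Adam9 was lower by -0.38 and only just passed (adjusted p = 0.0473, limma), a call kept without WT replicate 3 and lost without any other array. Pappa, the pappalysin that cleaves IGFBP4, differed by -0.20 (adjusted p = 0.209, limma) and Stc2, which inhibits it, by -0.21 (adjusted p = 0.122, limma), and neither passed.

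Of 12 other proteins with an IGFBP-type domain 2 were lower and 0 higher by limma, against 9.75% and 14.2% of all genes. Between the groups 3 of the 12 did not overlap, where 44.8% of all genes did not. Centred on the bacterial controls, 7 were higher and 0 lower, with a median of 0.401. Igfbp7, an endothelial and stromal protein with low affinity for IGFs, fell from 10.66 ± 0.08 to 10.32 ± 0.06 (SD, n = 3; adjusted p = 0.0277, limma). Igfbp6, which prefers IGF2, fell from 5.83 ± 0.16 to 5.29 ± 0.13 (adjusted p = 0.0133, limma). Igfbp7 lost its call without any array but WT replicate 3, and Igfbp6 without KO replicate 1 (adjusted p = 0.0577, limma). Centred on the bacterial controls, Igfbp7 turned to 0.17 and Igfbp6 shrank to -0.03. Esm1, an endothelial proteoglycan, read 2.89, 2.93 and 3.23 in WT and 3.30, 5.86 and 4.95 in KO. All its WT arrays and its KO mean lay under background, so no size is given to its difference, which did not pass (adjusted p = 0.0573, limma).

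Since Igfbp6, Igfbp7 and Igfbp5 are also made by other liver cells, the markers of those cells are given beside them, and they were mixed. The summed level of 8 markers of sinusoidal endothelium ran from 11.50 to 11.68 (log2 of the sum) in WT and from 11.20 to 11.35 in KO, with 3 of the 8 lower and a median difference of -0.22. Lyve1 alone among them was higher, from 4.87, 4.47 and 4.66 in WT, under background, to 5.92, 7.08 and 7.20 in KO (adjusted p = 0.00287, limma). For 8 markers of stellate cells the ranges were 12.10 to 12.19 and 11.76 to 11.99. The bright Dcn (-0.33) and Reln (-0.50) were lower, whereas the median of the 8 was 0.06 and the other 6 did not pass. For 5 markers of bile duct cells the ranges were 7.24 to 7.51 and 7.04 to 7.16, with 1 lower. The 8 macrophage markers overlapped (11.39 to 12.57 in WT, 11.80 to 12.19 in KO) and none passed, and the same held for 8 of lymphocytes and neutrophils (8.12 to 8.94 and 7.84 to 8.59). Of these defining markers Krt7, Cftr, Cd3g and Nkg7 lay under background on all arrays. The 7 hepatocyte markers summed to 16.60 to 16.66 in WT and 16.70 to 16.75 in KO, with 1 higher. Of all genes 9.75% were lower and 14.2% higher. These marker levels are as deposited, and centring on the bacterial controls would add 0.51 to the difference of each marker. The part of cell composition in the binding protein results was not tested.

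Beside Igf2r, the smaller receptor for mannose 6-phosphate tags rose as well. M6pr read 10.34, 10.26 and 10.28 in WT and 10.75, 10.77 and 10.68 in KO (0.44, adjusted p = 0.00839, limma). Of 6 genes that make or read the tag or bind IGF mRNAs, 1 was higher and 1 lower, against 14.2% and 9.75% of all genes. The lower one was Igf2bp1, a fetal mRNA-binding protein (-0.40, adjusted p = 0.0149, limma), whose call was lost without KO replicate 1 or 2. On the scale of the bacterial controls Igf2bp1 turned to 0.12. Of the 6, 4 were higher and 0 lower when centred on the bacterial controls. Gnptab, the enzyme that makes the tag, differed by -0.07 and did not pass, and turned to 0.448 on the same scale (adjusted p = 0.00517, limma). Of 12 listed imprinted genes that are active with Igf2 in fetal growth, 1 was lower and 0 were higher, against 9.75% and 14.2% of all genes. The lower one was Peg3 (-1.23, adjusted p = 0.028, limma). Igf2r and Grb10, both higher in KO, are not in this list. The groups did not overlap in 1 of the 12, where 44.8% of all genes did not. Centred on the bacterial controls, 8 were higher and 0 lower, with a median of 0.469, and Peg3 lost its call (-0.71, adjusted p = 0.0786, limma). Peg3 read 6.91, 7.39 and 5.94 in WT and 5.38, 5.54 and 5.65 in KO, and only without WT replicate 3 did it keep its call, the adjusted p being 0.0564 to 0.0925 without any other array (limma).

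Igfbp1 shares known regulators with 2 groups of genes, and whether any of them acted on it here was not tested. Of 10 FOXO1 target genes that insulin represses in liver 1 was higher and 5 were lower, where 14.2% and 9.75% of all genes were, and the other 4 did not pass. The median was -0.46. After centring on the bacterial controls, 2 of the 10 were higher and 3 lower, with a median of 0.05. Pck1 fell by 1.83 and Ppargc1a, a coactivator of gluconeogenesis, by 1.72, both more than 3-fold, and Apoc3, an apolipoprotein that slows fat clearance, by 0.92 (adjusted p = 0.000524, 0.000274 and 0.000273, limma). The higher one was Angptl4, an inhibitor of lipoprotein lipase (1.16, adjusted p = 0.00552, limma), a call lost over the mean of its probe sets (0.48). These counts cover the listed genes only. Pdk4, closest in pattern to Igfbp1 and higher in KO (3.10, adjusted p = 0.0144, limma), is not in this list. Of 16 targets of ATF4 and the integrated stress response, which also raises Igfbp1, 11 were higher and 0 lower, with a median of 2.31. Among all genes 14.2% were higher and 9.75% lower. The groups did not overlap in 12 of the 16, against 44.8% of all genes. Centred on the bacterial controls, 16 were higher and 0 lower, where 12970 of all 18193 genes were higher and 409 lower. Nupr1, a stress-induced chromatin protein, read 4.69, 5.10 and 4.92 in WT and 11.60, 12.20 and 11.22 in KO. Psat1, of serine synthesis, rose at least 24.3-fold from a WT level under background (adjusted p = 2.29e-05, limma). Trib3, a pseudokinase that binds AKT, rose by 4.67 and Fgf21, a hormone of fasting and stress, by 4.43. On WT replicate 1, where Igfbp1 was high, the listed genes were mixed. Trib3 (6.04, against 6.22 and 7.35) and Nupr1 were at their lowest WT level there, as were Atf3, Ddit3, Sesn2 and Chac1. Fgf21 (6.21, against 5.70 and 5.82) was at its highest WT level there. So were Atf4, Atf5, Ddit4, Vldlr, Ppp1r15a, Cth and, under background, Psat1. Asns and Phgdh lay between.

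**Figure D5:**
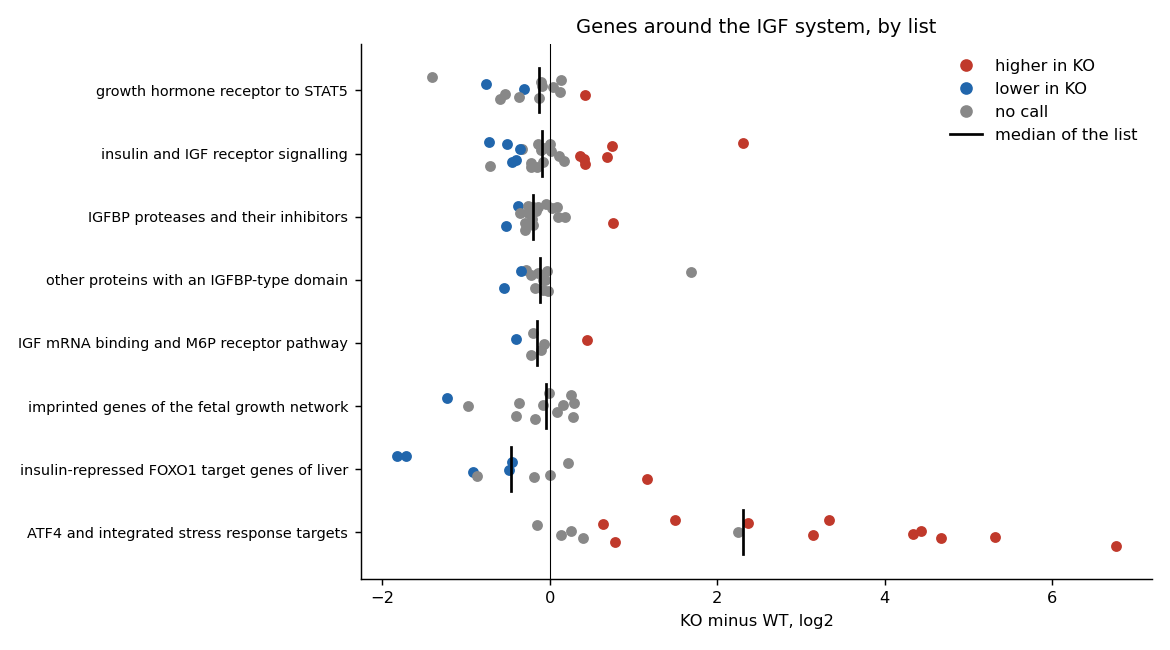
KO minus WT difference (log2) of the genes of 8 lists around the IGF system, 1 point per gene coloured by its limma call, with the median of each list as a black bar. Genes of ATF4 and the integrated stress response reach 6.77, while the median of the FOXO1 target genes lies at -0.46.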

How the data were processed

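The authors measured total liver RNA, labelled with biotin, on Affymetrix mouse arrays. Per the submitters' processing notes the authors used RMA, and the deposited table gives 1 value for each probe set and array. The authors' RMA values were taken as log2 levels from their range, 2.15 to 14.9. RMA forces arrays towards 1 distribution, so levels are relative and dim differences are compressed. No detection calls were used. Of 45101 probe sets 64 are controls, 34945 have 1 symbol in the platform annotation of 2016, 932 several, and 9160 are not listed in it. Symbols were checked by gene identifier against RefSeq GRCm38.p6 (0 changed, 204 unmatched).

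KO and WT were compared by limma 3.58.1 under R 4.3.3 (lmFit, eBayes, two-sided, group only, no filter), on the 18193 genes and, for further probe sets, on all 34945. The fit was tested on simulated data. Precision is limited by the number of arrays. Background is the 95th percentile (4.90) of 38 olfactory receptor genes, and a fold against a group wholly under it is a lower bound. All 10 genes were above it on all arrays by their brightest probe sets.

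The genes and lists were chosen with earlier results of these data known. Named are the 10 genes, up to 4 called genes per list, those of largest difference (or up to 2 where none passed), and the 2 genes nearest in pattern to each called gene. Jak2, Stat5a, Stat5b, Socs2, Socs3, Cish, Insr, Irs1, Irs2, Pappa, Stc2, Esm1 and Gnptab fall outside that rule and were named after their values were seen. The promoter motifs were chosen after the windows were seen. Insr and Irs2 are in 2 lists.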

Additional observations from a re-analysis of the deposited data

How the results depend on the processing

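Of the 17 alternatives, centring on the bacterial controls changed most: 6 of the 10 genes were higher and 1 lower, and of all genes 12970 and 409. On that scale Igf2 (0.27), Igfbp4 (0.31), Igfbp5 (0.21), Igf1r (0.505), Socs1 (0.20), Adam9 (0.13), Igfbp7 (0.17), Igf2bp1 (0.12), Jak2 (0.425), Stat5a (0.385), Stat5b (0.149), Insr (0.068), Pappa (0.318), Stc2 (0.301) and Gnptab (0.448) turned sign, since it adds the same amount to every gene. The most variable probe set in place of the brightest gave 4 lower among the 10 and turned Igf2 to 0.12, Stat5a to 0.034 and Gnptab to 0.382. The mean of probe sets turned Gnptab to 0.155. Irs2 turned to -0.065 with quantile normalization and to -0.136 with array weights. Centring on the array median turned Igf1r to 0.031. With trend and robust eBayes 1 of the 10 was higher. An adjusted p under 0.01 left 1 higher, and 1285 higher and 732 lower of all genes. At least 2-fold differences left 1 higher and 1 lower, and 550 and 327 of all genes.

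Without 1 array in turn, 1 to 2 of the 10 genes were higher (1 without WT replicate 2 or 3 or any KO array, the lost gene being Igfbp1) and 2 to 3 lower, 1497 to 2424 of all genes were higher and 888 to 1679 lower. The lowest counts came without KO replicate 2 (1497 and 888) and KO replicate 1 (1604 and 984), and 1156 were lower without KO replicate 3. Igf1r ran from -0.10 to 0.11, with 0.02 and 0.04 without KO replicates 1 and 2 and 0.11 without WT replicate 2. Leaving out 1 array moved Stat5a between -0.289 and 0.071, Cish between -0.918 and 0.028, Irs2 between -0.415 and 0.374 and Gnptab between -0.12 and 0.002. The causes were not tested. Of 933 values of 55 named genes under the alternatives, 793 kept their direction and side of the threshold, 92 lost the call, 17 gained one and 31 turned.

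The titles number the replicates of each group from 1 to 3. Deviations of same-numbered arrays correlated at 0.105, -0.018 and 0.105, and 1 of the 3 WT arrays correlated best with its own number. With 3 arrays a group, these values neither show nor exclude that the numbers pair the samples. With a replicate block 2471 of all genes were higher and 1618 lower, and of the 10 genes 2 and 3, the third lower one being Igfbp2 (adjusted p = 0.0128, limma). The block also gave a call to Socs2 (0.0288) and Esm1 (0.0393, under background) and ended those of Sirpa (0.0864), Socs1 (0.0569), Adam9 (0.0699) and Igfbp7 (0.0544). With 3 arrays a group, a small change in a gene can miss the threshold.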
